A study of Mus musculus with 2 samples.

Results

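The delta protocadherins are single-pass transmembrane proteins of the cadherin superfamily, and 8 of them were followed here: Pcdh1, Pcdh7, Pcdh8, Pcdh9, Pcdh10, Pcdh17, Pcdh18 and Pcdh19. They were taken by symbol from the 32285 genes in the deposited feature table, together with the 88 of 229480 accessibility peaks that lay within 50 kb of their starts. Gastrulating mouse embryos (embryonic day 7.0) had been pooled, dissociated with TrypLE and reduced to nuclei. Each nucleus gave RNA and open chromatin from the same droplet (a single-nucleus multiome), so the 2 samples were the same pool seen by 2 assays. No allele, transgene or treatment separated them. The labels disagreed: title, age and protocol gave embryos, but other fields gave sections of intestine and colon, goblet cells and a strain called RedMUC298trTg. The goblet cell genes Muc2 and Tff3 had 21 and 11 UMIs (unique molecules) over all 15341 barcodes, and the groups followed the title and the age. Because each assay has 1 library, differences have no replicate check and are given without tests. The 95% intervals reflect counting error alone.

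Protocadherins bind copies of themselves weakly across cell contacts, and the delta group also acts within the membrane by joining classical cadherins such as N-cadherin. Of the members followed here, Pcdh1, Pcdh7 and Pcdh9 belong to the delta-1 subgroup, with longer ectodomains and a tail motif that binds protein phosphatase 1. Pcdh8, Pcdh10, Pcdh17, Pcdh18 and Pcdh19 belong to the delta-2 subgroup, several of which recruit the WAVE actin-regulatory complex. Pcdh8, or paraxial protocadherin, is known from gastrulating mesoderm, where it is linked to the sorting and movement of cells.

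The 300-base promoter windows of 5 members are shown because these 5 had more RNA in mesoderm than in epiblast while counts in the promoter peaks at the starts given in the files stayed within 2-fold. Pcdh7 passed 2-fold once peaks near the 5′ end of its RefSeq gene span were added. The windows come from RefSeq on GRCm38.p6, run 5′ to 3′ on the gene's strand, and hold 250 bases before the start of that table and 50 after it. For Pcdh7 that start lies downstream of the first base of the gene span, 57716145, so the window printed is not the promoter at that end, and it does not overlap the 2 peaks near it. For Pcdh18 and Pcdh19 the start also lies inside the span, within the window's own length of its 5′ end. Pcdh7 is at chr5:57717831-57718130 (plus strand), Pcdh8 at chr14:79771263-79771562 (minus), Pcdh17 at chr14:84443313-84443612 (plus), Pcdh18 at chr3:49757267-49757566 (minus) and Pcdh19 at chrX:133688944-133689243 (minus). Capitals mark matches to the motifs searched.
Pcdh7: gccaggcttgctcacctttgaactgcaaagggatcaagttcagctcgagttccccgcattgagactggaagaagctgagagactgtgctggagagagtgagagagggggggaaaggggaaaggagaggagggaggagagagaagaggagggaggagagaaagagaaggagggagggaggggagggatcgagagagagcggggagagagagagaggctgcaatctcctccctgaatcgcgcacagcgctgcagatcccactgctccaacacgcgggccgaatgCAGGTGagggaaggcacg
Pcdh8: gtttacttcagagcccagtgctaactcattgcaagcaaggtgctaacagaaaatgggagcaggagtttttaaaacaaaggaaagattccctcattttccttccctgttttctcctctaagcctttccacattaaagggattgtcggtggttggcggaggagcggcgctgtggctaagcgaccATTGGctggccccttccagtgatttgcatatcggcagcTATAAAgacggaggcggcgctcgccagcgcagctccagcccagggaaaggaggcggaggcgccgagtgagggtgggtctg
Pcdh17: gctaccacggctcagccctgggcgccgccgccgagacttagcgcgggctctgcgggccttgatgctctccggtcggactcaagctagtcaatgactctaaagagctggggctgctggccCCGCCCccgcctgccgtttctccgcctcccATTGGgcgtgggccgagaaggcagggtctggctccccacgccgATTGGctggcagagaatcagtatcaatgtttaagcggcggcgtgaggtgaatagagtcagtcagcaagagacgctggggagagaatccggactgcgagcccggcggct
Pcdh18: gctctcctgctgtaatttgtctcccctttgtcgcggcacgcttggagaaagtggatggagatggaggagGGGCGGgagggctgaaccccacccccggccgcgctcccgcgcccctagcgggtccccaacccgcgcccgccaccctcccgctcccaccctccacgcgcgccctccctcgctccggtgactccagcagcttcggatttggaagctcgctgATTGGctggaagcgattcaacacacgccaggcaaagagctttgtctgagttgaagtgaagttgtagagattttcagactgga
Pcdh19: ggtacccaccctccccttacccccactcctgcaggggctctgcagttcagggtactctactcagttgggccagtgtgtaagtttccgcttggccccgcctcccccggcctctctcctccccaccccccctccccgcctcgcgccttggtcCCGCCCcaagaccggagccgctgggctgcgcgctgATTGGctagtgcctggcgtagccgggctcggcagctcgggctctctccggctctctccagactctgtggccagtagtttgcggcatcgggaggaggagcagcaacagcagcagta

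The motifs searched, on both strands, were the CCAAT box, the GC box GGGCGG, the TATA box TATAAA, the E-box CACCTG bound by Snail-type factors, the T-box site AGGTGTGA, the TCF/LEF site CTTTGAT and the GATA site AGATAA. Windows were matched for 7 of the 8 members. CCAAT was in 6 of the 7, against 37.4% of all 32817 windows of that length, and was not in the window printed for Pcdh7. GGGCGG was in 4, those of Pcdh10, Pcdh17, Pcdh18 and Pcdh19, against 35.6% of all windows. In the Pcdh8 window a TATAAA began 30 bases before the start, and 13.6% of windows hold that motif. The Pcdh7 window held CACCTG, read on the other strand as CAGGTG, 33 bases after the start in that table, and 20.2% of windows hold it. AGGTGTGA, CTTTGAT and AGATAA were in none of the members' windows, against 1.27%, 3.73% and 11.2% of all. The members' windows had 54.3% to 67.7% G+C and 11 to 26 CpG, against medians of 52.7% and 7. A match is a run of letters and not a shown binding site.

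The kept nuclei numbered 12796 and had medians of 10471 UMIs, 4221 genes and 17350 peak counts. RNA was read in 10 classes built from accessibility, from which the members' peaks were left out. Accessibility was read in 9 classes built from RNA, from which the members were left out. Classes of the same name in the 2 sets do not hold the same nuclei. Parietal endoderm-like nuclei, for example, numbered 582 by accessibility and 180 by RNA. No RNA-defined class was extraembryonic mesoderm-like. Clusters were named "X-like" from marker genes in their RNA. In the embryonic mesoderm-like class the mesoderm marker list summed to 2544 CPM (pooled counts normalised to the class's total), against 143 in epiblast-like nuclei, and the epiblast list to 786 against 3596. The visceral endoderm list was at 939 and 998, and the goblet list at 11.1 and 8.61. The goblet list was higher in visceral endoderm-like (94.8), parietal endoderm-like (64.6) and unnamed nuclei (61.6). No marker list held a member. In all, 3122 nuclei fell in unnamed accessibility clusters and 1936 in unnamed RNA clusters.

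In embryonic mesoderm-like nuclei 5 of the 8 delta protocadherins followed here were higher than in epiblast-like nuclei: Pcdh19, Pcdh7, Pcdh8, Pcdh17 and Pcdh18. Pcdh1 was lower, and Pcdh9 and Pcdh10 stayed within 2-fold. A gene was called when it differed at least 2-fold on at least 50 UMIs over both classes, and 7.14% of the 14555 genes so measured were called higher and 10.8% lower. The members' median log2 fold was 2.34, against 0.02 over all those genes. All 8 passed the UMI limit.

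**Figure D1:**
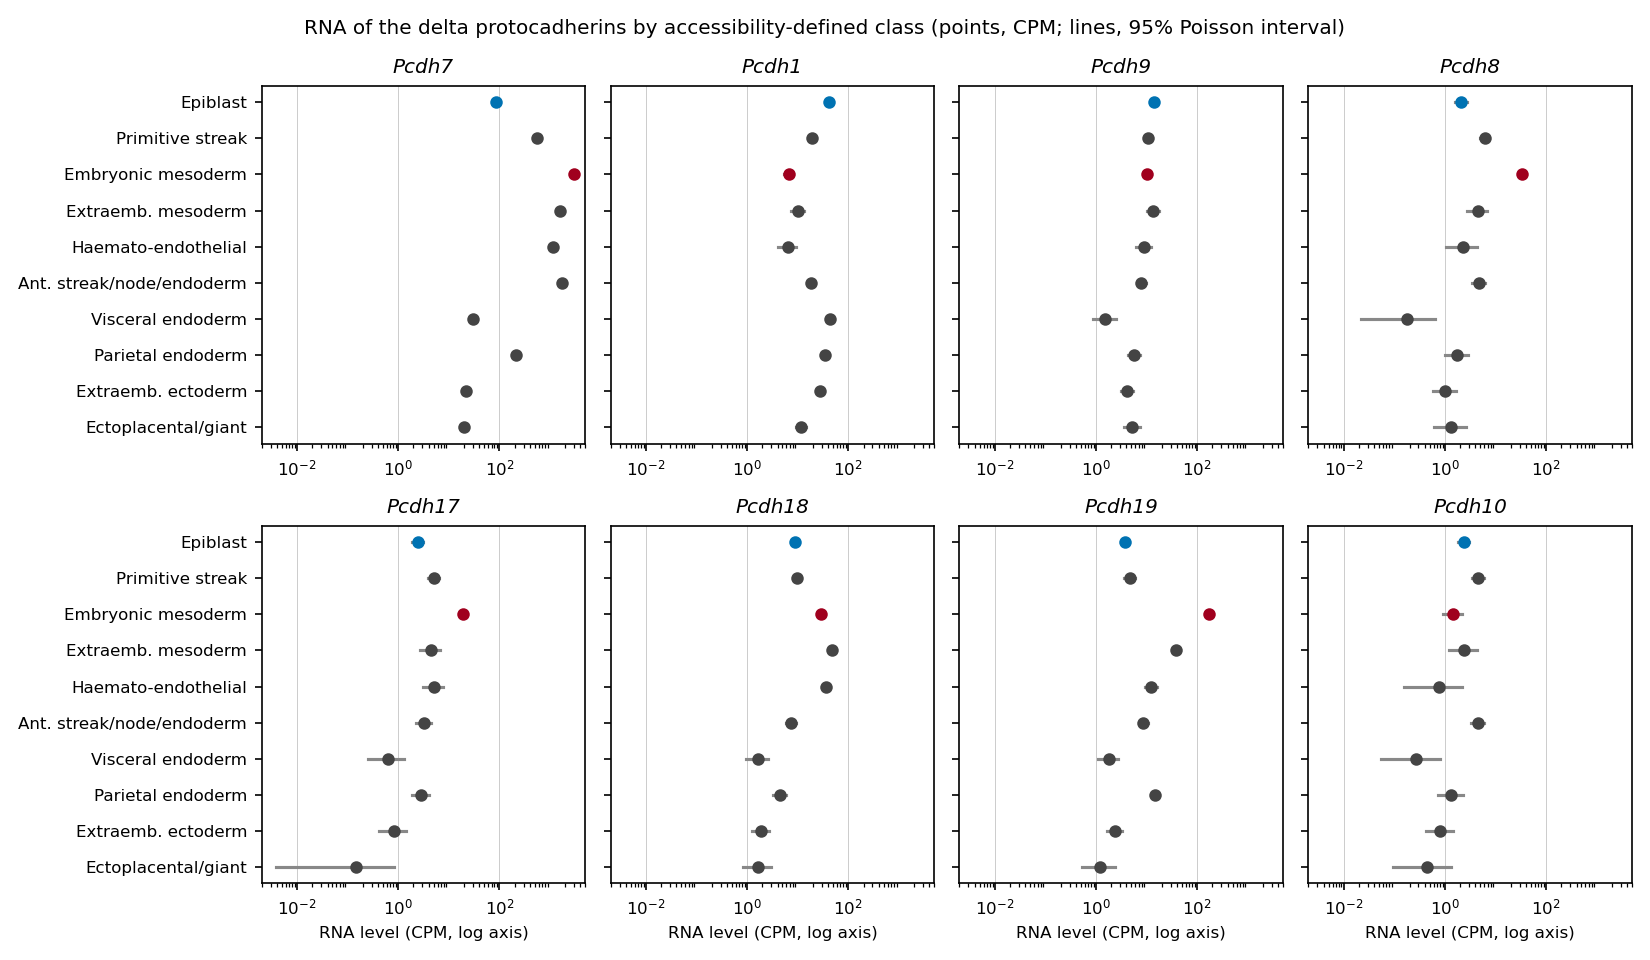
RNA level of each delta protocadherin (CPM, log axis) in the 10 accessibility-defined classes, whose names are shortened from "X-like"; points are pooled counts and lines 95% Poisson intervals, with epiblast in blue and embryonic mesoderm in dark red. Pcdh7, Pcdh8, Pcdh17 and Pcdh19 are highest in embryonic mesoderm, Pcdh18 in extraembryonic mesoderm and Pcdh1 in visceral endoderm and epiblast.

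Pcdh7 (ENSMUSG00000029108; chr5:57716145-58133236, plus strand) was the most abundant member, with 101749 of the kept UMIs, and ranked 142 among all genes. Its level was 2944 CPM in embryonic mesoderm-like nuclei, 1700.3 in the anterior streak, node and definitive endoderm-like class, 1594 in extraembryonic mesoderm-like, 1145 in haemato-endothelial progenitor-like and 549 in primitive streak-like nuclei. It was 212 CPM in parietal endoderm-like, 85.1 in epiblast-like, 30.5 in visceral endoderm-like, 21.6 in extraembryonic ectoderm-like and 19.8 in ectoplacental cone and giant cell-like nuclei. The mesodermal and streak classes thus stood above all the other named classes, and only the last pair in that order had a ratio whose interval included 1. An unnamed cluster of 1225 nuclei had 601 CPM, above primitive streak-like nuclei. In embryonic mesoderm-like nuclei Pcdh7 ranked 4 among all genes and took 0.294% of the UMIs. The fold over epiblast-like nuclei was 34.6 (33.1 to 36.1). It moved from 19.7 with a stricter depth limit to 63.4 with finer clusters, and was 54.6 in RNA-defined classes and 22.1 with doublet calls kept.

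In embryonic mesoderm-like nuclei 99.3% held a Pcdh7 UMI, against 26.4% of epiblast-like and 15.6% of visceral endoderm-like nuclei. Their median depths were 10645, 10562 and 12154.5 UMIs. After thinning every nucleus to 5000 UMIs the shares were 99.5%, 16.5% and 6.17%. Extraembryonic ectoderm-like and ectoplacental nuclei, at 7.34% and 7.32% thinned, were close to the visceral endoderm share. No share in empty droplets was measured, so the shares of these 3 classes are not read as expression. In epiblast-like nuclei, 52 nuclei with at least 10 Pcdh7 UMIs each held 46.4% of the class's Pcdh7 UMIs, so its level there came in large part from few nuclei.

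In the parietal endoderm-like class the Pcdh7 level rested on few nuclei. Visceral endoderm markers were raised in this class too: that list summed to 9804 CPM and the parietal list to 3319.7, against 998 and 257 in epiblast-like nuclei. Their mean log2 ratios were 1.03 and 2.36, and the part of the visceral signal in the members' values was not tested. Here 38 of 582 nuclei, those with at least 10 UMIs, held 89.0% of the 2046 Pcdh7 UMIs. In this class 165 nuclei had UMIs of both Xist, the RNA of the inactive X of female cells, and a Y-linked gene; their median depth was 22013 UMIs and they held 1629 of the Pcdh7 UMIs. Such nuclei made up 17.8% of all kept nuclei. Without them the Pcdh7 level was 76.0 CPM in parietal endoderm-like and 73.0 in epiblast-like nuclei, a ratio of 1.04 (0.932 to 1.16), where with them it was 2.49 and called.

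Pcdh19 (ENSMUSG00000051323; chrX:133582860-133689044, minus strand), an N-cadherin partner whose gene is X-linked, had a larger fold between these classes than Pcdh7, but the order turned at resolution 0.5 (32.4 against 35.4 for Pcdh7), at resolution 2 (43.2 against 63.4) and in RNA-defined classes (48.1 against 54.6). It reached 173 CPM in embryonic mesoderm-like nuclei, 38.6 in extraembryonic mesoderm-like, 14.9 in parietal endoderm-like, 12.4 in haemato-endothelial progenitor-like and 8.58 in the anterior streak class. The other classes lay between 1.20 and 4.70 CPM, with 3.77 in epiblast-like and 4.70 in primitive streak-like nuclei. Embryonic mesoderm-like nuclei were 45.9-fold over epiblast-like (37.5 to 56.7), 36.8-fold over primitive streak-like (28.7 to 47.9) and 4.48-fold over extraembryonic mesoderm-like (3.84 to 5.25). With doublet calls kept the first of these was 30.4. A Pcdh19 UMI was found in 55.6% of embryonic mesoderm-like nuclei, 18.1% of extraembryonic mesoderm-like, 3.10% of epiblast-like and 1.88% of visceral endoderm-like nuclei. Thinned, the first and last shares were 42.8% and 0.741%.

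Pcdh8 (ENSMUSG00000036422; chr14:79766772-79771312, minus strand) was at 33.2 CPM in embryonic mesoderm-like nuclei and at most 6.09 CPM in the other named classes, in the primitive streak-like one. It was 2.11 in epiblast-like and 0.180 in visceral endoderm-like nuclei, the latter on 2 UMIs. An unnamed cluster of 189 nuclei had 7.67 CPM on 12 UMIs. The fold over epiblast-like nuclei was 15.7 (11.9 to 21.1) and over primitive streak-like 5.45 (4.31 to 6.95). The primitive streak-like class was itself 2.88-fold over epiblast-like nuclei. Below embryonic mesoderm, the neighbours in the order of the classes had ratios whose intervals included 1, down to extraembryonic ectoderm-like nuclei, which were above visceral endoderm-like ones.

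Pcdh17 (ENSMUSG00000035566; chr14:84443563-84537565, plus strand), a binder of the WAVE complex, was at 18.9 CPM in embryonic mesoderm-like nuclei and at 5.05 in the next class, the haemato-endothelial progenitor-like one. Its fold over epiblast-like nuclei was 7.79 (5.92 to 10.4), and 4.43 with doublet calls kept. Haemato-endothelial, primitive streak-like (4.99), extraembryonic mesoderm-like (4.43), anterior streak (3.24), parietal endoderm-like (2.80) and epiblast-like nuclei (2.42) formed a chain of neighbours whose intervals included 1. The trophoblast and visceral endoderm classes lay at 0.814 CPM or less.

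Pcdh18 (ENSMUSG00000037892; chr3:49743291-49757383, minus strand) was ordered differently. It was highest in extraembryonic mesoderm-like nuclei at 48.1 CPM, then haemato-endothelial progenitor-like at 36.6 and embryonic mesoderm-like at 28.5, and each step had an interval above 1. The embryonic mesoderm markers were raised in all 3 classes, summing to 1918, 1635 and 2544 CPM against 143 in epiblast-like nuclei, and in the first exceeded the extraembryonic mesoderm list (735 CPM). The part of shared cell identity in this order was not tested. Embryonic mesoderm-like nuclei were 0.593 of extraembryonic mesoderm-like ones (0.503 to 0.701) and 3.29-fold over epiblast-like ones (2.79 to 3.87). Primitive streak-like, epiblast-like and anterior streak nuclei followed at 9.54, 8.68 and 7.44 CPM. The parietal endoderm-like class was at 4.45 and the others at 1.90 or below.

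Pcdh1 (ENSMUSG00000051375; chr18:38185914-38212048, minus strand), known as an adhesion protein of epithelia, had a contrasting distribution. It was at 43.3 CPM in visceral endoderm-like, 41.6 in epiblast-like, 35 in parietal endoderm-like and 27.8 in extraembryonic ectoderm-like nuclei. Primitive streak-like and anterior streak nuclei held 19.2 and 18.5 CPM, ectoplacental 11.5, extraembryonic mesoderm-like 9.97, embryonic mesoderm-like 6.69 and haemato-endothelial nuclei 6.31. The ratio of embryonic mesoderm-like to epiblast-like nuclei was 0.161 (0.130 to 0.196), and that of primitive streak-like to epiblast-like nuclei was 0.462. Over the 17 accessibility clusters its log2 level had Pearson coefficients of -0.474 to -0.553 with Pcdh7, Pcdh8, Pcdh17, Pcdh18 and Pcdh19. Those clusters share 1 library, and the coefficients are descriptions.

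Pcdh9 (ENSMUSG00000055421; chr14:93013700-93892834, minus strand), best known from neurons, was at 13.7 CPM in epiblast-like and 10.3 in embryonic mesoderm-like nuclei, a ratio of 0.747 (0.617 to 0.903). It was lowest in visceral endoderm-like nuclei, at 1.53 CPM, and every neighbouring pair above extraembryonic ectoderm-like nuclei (4.14) had an interval including 1. Pcdh10 (ENSMUSG00000049100; chr3:45378398-45434579, plus strand), a WAVE-binding member, was the least abundant, with 340 UMIs. Primitive streak-like nuclei had 4.55 CPM, anterior streak 4.47, epiblast-like 2.34 and embryonic mesoderm-like 1.46. The last pair had a ratio of 0.625 (0.369 to 1.02), which was not called. With finer clusters it was 0.333 and with 20 components 0.333, and both were called lower, as also happened with coarser clusters (0.382) and with doublet calls kept (0.407). The highest Pcdh10 level was in an unnamed cluster of 702 nuclei whose leading marker list was epiblast, at 12.0 CPM on 75 UMIs, 5.12-fold over the epiblast-like class (3.61 to 7.31); Pcdh10 was among the leading genes of that cluster.

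**Figure D2:**
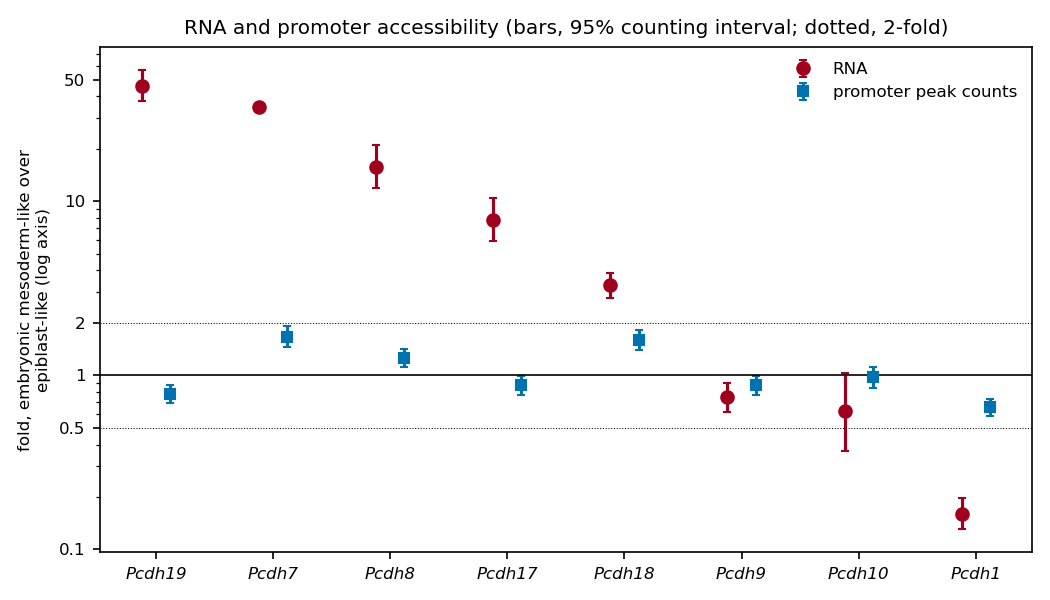
Fold of embryonic mesoderm-like over epiblast-like nuclei (log axis) for RNA (circles, accessibility-defined classes) and for counts in the promoter peaks (squares, RNA-defined classes), with bars at 95% counting intervals and dotted lines at 2-fold. RNA folds run from 45.9 for Pcdh19 to 0.161 for Pcdh1, whereas promoter folds at the starts in the files stay between 0.656 and 1.67; with peaks at its RefSeq start added, which is not drawn, Pcdh7 was at 2.35.

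Levels between genes were compared per kb of the gene's span in RefSeq, since nuclear RNA includes introns. In embryonic mesoderm-like nuclei Pcdh8, a gene of 4.54 kb, had 7.31 CPM per kb and Pcdh7, of 417 kb, had 7.06. Pcdh18 followed at 2.02, Pcdh19 at 1.63, Pcdh1 at 0.256 and Pcdh17 at 0.201 CPM per kb. Pcdh8 and Pcdh7 thus had similar values after division by span, although their CPM differed widely. Whether UMIs scale with span was not tested, so this is no measure of like expression. Noncoding genes overlap several members and the use of strand in counting was not stated; 4932441J04Rik, at Pcdh7, had 389 UMIs, and those found at Pcdh8, Pcdh10 and Pcdh17 had 16 or fewer.

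In the other classes the counts of called members differed. Extraembryonic mesoderm-like nuclei had 4 members higher than epiblast-like ones and 1 lower (all genes, 7.55% and 10.7%). The higher ones were Pcdh7 (18.7-fold), Pcdh19 (10.2), Pcdh18 (5.54) and Pcdh8 (2.10). Haemato-endothelial progenitor-like nuclei had 4 higher and 2 lower (8.48% and 13%), with Pcdh7 at 13.5-fold, Pcdh18 at 4.22, Pcdh19 at 3.29 and Pcdh17 at 2.09. Without nuclei holding both Xist and Y-linked UMIs, Pcdh17 was 1.62 there (0.756 to 3.20) and no longer called. The anterior streak, node and definitive endoderm-like class had 3 higher and 1 lower (5.9% and 5.14%), namely Pcdh7 (19.98), Pcdh19 (2.28), Pcdh8 (2.20) and Pcdh1 (0.444).

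Primitive streak-like nuclei also had 3 higher and 1 lower (2.23% and 2.48%): Pcdh7 (6.45), Pcdh8 (2.88), Pcdh17 (2.06) and Pcdh1 (0.462). Pcdh19 was not among them. In parietal endoderm-like nuclei 2 were higher and 1 lower (14.3% and 16.8%). Visceral endoderm-like nuclei had none higher and 7 lower (15.2% and 23.4%), with Pcdh1 the exception. An unnamed cluster of 1006 nuclei, in which visceral endoderm markers were also raised, had Pcdh7 at 502 CPM. That is above the 85.1 of epiblast-like nuclei. Extraembryonic ectoderm-like nuclei had 6 lower (10.6% and 19.9%) and ectoplacental cone and giant cell-like nuclei 7 lower (10.5% and 21%), again with none higher. Several of these calls met the limit of 50 UMIs through epiblast-like nuclei alone, so hardly any call but lower was possible. In visceral endoderm-like nuclei Pcdh8 had 2 UMIs against 55, Pcdh10 3 against 61 and Pcdh17 7 against 63. In ectoplacental nuclei Pcdh10 had 3 against 61 and Pcdh17 1 against 63. Without nuclei holding both Xist and Y-linked UMIs, 6 of the lower calls fell under the limit of 50 UMIs. These were Pcdh8 and Pcdh10 in visceral endoderm-like, Pcdh10 and Pcdh17 in ectoplacental, Pcdh10 in haemato-endothelial and Pcdh8 in extraembryonic ectoderm-like nuclei, the last at a ratio of 0.530 (0.244 to 1.06). The same step added calls for Pcdh17 in extraembryonic mesoderm-like (2.46), Pcdh18 in parietal endoderm-like (0.266) and Pcdh10 in primitive streak-like nuclei (2.25). In all these comparisons the epiblast-like class is the shared reference.

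Within single embryonic mesoderm-like nuclei the members were found together about as often as their separate shares give. Thinned to 5000 UMIs, 257 of 1320 nuclei (19.5%) held UMIs of at least 3 members, against 5.85% of extraembryonic mesoderm-like, 2.99% of haemato-endothelial and 0.825% of epiblast-like nuclei. Pcdh8 and Pcdh19 shared 98 nuclei where the product of their shares gives 81.8, a ratio of 1.20 (0.980 to 1.45). For Pcdh18 and Pcdh19 the ratio was 1.05 (0.830 to 1.31) and for Pcdh17 and Pcdh19 1.06 (0.762 to 1.44). Over the pairs in this class with an expected number of at least 5 nuclei, 14 of 19 ratios lay above 1. Of those 14, 5 were pairs with Pcdh7, which was found in 1313 of the 1320 nuclei, so that these ratios could not exceed 1.01 and say nothing.

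At finer resolution the mesoderm fell into a cluster of 642 nuclei led by Myl7, Pcdh15 and Nrp1 and a cluster of 572 led by Dcc and T, the gene for Brachyury. Pcdh17 was 1.82-fold higher in the former (1.40 to 2.38), Pcdh9 1.73-fold (1.21 to 2.48), Pcdh19 1.37-fold (1.26 to 1.48) and Pcdh18 1.35-fold (1.09 to 1.69). Pcdh7 and Pcdh8 differed less, at 1.13 (1.11 to 1.16) and 1.16 (0.970 to 1.40). The anterior streak class also held clusters with different members. A cluster of 403 nuclei led by Cer1 had Pcdh7 at 2812 CPM against 972 in a cluster of 665 led by Pkd1l1, 2.89-fold (2.81 to 2.98), and Pcdh19 at 16.6 against 3.33 CPM. Pcdh8 ran the other way, at 2.43 against 6.09 CPM, a ratio of 0.40 (0.186 to 0.790).

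Among 12306 genes with at least 500 UMIs, those most like each member over the 17 accessibility clusters were ranked by Pearson's coefficient of log2(CPM + 1). For Pcdh7 they were Cdh2, which encodes N-cadherin (0.962), Pcmtd2 (0.946) and Mixl1 (0.942). For Pcdh19 they were the Notch ligand gene Dll1 (0.936), Tmem132c (0.911) and Wnt2 (0.898), and for Pcdh8 Rimbp2 (0.93), Dll3 (0.904) and Tmem132c (0.897). Tmem88 (0.956), Vegfc (0.940) and Adamts3 (0.939) were nearest to Pcdh18 and Tenm2 (0.878), Ptpru and Gas1 to Pcdh17. For Pcdh9 they were Mir17hg (0.966), Gm47320 and Zfp993, for Pcdh10 Ccnyl1 (0.890), E130308A19Rik and Cnnm3, and for Pcdh1 Tmem8 (0.911), Rab11fip4 and Slc25a23. Among the members, the closest pairs by Pearson's coefficient were Pcdh8 with Pcdh17 (0.827) and Pcdh17 with Pcdh19 (0.786). By Spearman's they were Pcdh7 with Pcdh19 (0.779) and Pcdh8 with Pcdh17 (0.762), and Pcdh17 with Pcdh19 was at 0.627. The names of the like genes depended on the clustering: 10 of the 24 were shared at resolution 0.5 and with 20 components, and 11 at resolution 2.

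The wider pathway was read from lists of partners and relatives. Of 21 intracellular and membrane partners, all measured, 2 were higher in embryonic mesoderm-like than in epiblast-like nuclei and 1 lower (all genes, 7.14% and 10.8%), with a median log2 fold of 0.03. Cdh11, a type II cadherin that is also in the mesoderm marker list, was at 20.3 CPM in epiblast-like and 660 in embryonic mesoderm-like nuclei (32.5-fold), and Cdh2 at 94.8 and 1029 CPM (10.8-fold). Dab1, a reelin pathway adaptor that binds Pcdh18, was 2.64-fold higher in epiblast. The other 18, among them the WAVE complex genes Nckap1 (1.20) and Cyfip1 (1.23) and the phosphatase gene Ppp1ca (0.966), stayed within 2-fold. In visceral endoderm-like and in extraembryonic ectoderm-like nuclei 7 of the 21 were lower and 1 higher, against 23.4% and 15.2% of all genes in the first class and 19.9% and 10.6% in the second.

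Streak and presomitic regulators had 14 of 17 genes measured, and all 14 were higher, with a median log2 fold of 3.33. Dll1 was 36.6-fold and Foxc1 30.3-fold, and Foxc2 39.8-fold on 3 epiblast UMIs (13.1 to 197). Of the 17, 8 are in the naming lists, 5 of them in that of embryonic mesoderm, so this list is not independent of the class. Of 4 protocadherins outside the gene clusters that are not among the members followed here, 2 were measured and both were higher. Pcdh11x was 10.7-fold higher, at 109.9 against 10.3 CPM, and Pcdh15 2.46-fold. Both were lower than in epiblast-like nuclei in the visceral endoderm-like and extraembryonic ectoderm-like classes. Of 56 clustered protocadherins only Pcdhga12 passed the UMI limit (2.45-fold), and its counts are uncertain because these genes share exons.

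At the starts given in the files, promoter counts of the members stayed within 2-fold between mesoderm and epiblast, but for Pcdh7 this did not hold with the RefSeq start. None of the 8 promoter sums (all peaks within 1000 bp of a start given in the files) was called in embryonic mesoderm-like, primitive streak-like, anterior streak or haemato-endothelial nuclei. Over all genes, 3.05% of promoters were called higher and 4.92% lower in embryonic mesoderm-like nuclei. For the other 3 classes the shares were 0.398% and 0.383%, 2.37% and 2.36%, and 2.64% and 7.16%. With shares this small, the lack of a call among 8 promoters says little about the members. The intervals here use fragments estimated from the peak counts.

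Pcdh7 promoter counts were 13.2 CPM in epiblast-like and 22.0 in embryonic mesoderm-like nuclei, 1.67-fold (1.45 to 1.93). RefSeq begins Pcdh7 further upstream, at 57716145, and with the 2 peaks within 1000 bp of that end added, the sums were 40.5 and 95.1 CPM, 2.35-fold (2.18 to 2.54) and called higher. With windows of 2000 bp to each side of the starts in the files the ratio was instead 1.11. For the other 7 members the RefSeq end added no peak. Pcdh18 had 16.4 and 26.1 CPM (1.59-fold, 1.39 to 1.83) and Pcdh8 24.8 and 31.4 (1.26-fold, 1.12 to 1.42). Pcdh19, whose RNA was 45.9-fold higher, had 30.04 and 23.5 CPM, a ratio of 0.783 (0.691 to 0.885). Pcdh17 had 27.9 and 24.5 CPM (0.878) and Pcdh1 40.4 and 26.5 (0.656). Pcdh10 was at 0.973 and Pcdh9 at 0.874. For Pcdh19, and for Pcdh17 (0.771 to 0.997 at the promoter), the promoter ratio and the RNA fold thus lay on opposite sides of 1.

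In the extraembryonic lineages the promoters did differ. Of the 8, 6 were lower and none higher in visceral endoderm-like nuclei (all genes, 21.7% and 5.48%), with Pcdh9 at 0.213, Pcdh7 at 0.353, Pcdh10 at 0.412, Pcdh18 at 0.415, Pcdh8 at 0.436 and Pcdh19 at 0.442. Pcdh17 (0.694) and Pcdh1 (1.05) were not called. In extraembryonic ectoderm-like, ectoplacental and parietal endoderm-like nuclei 4 each were lower (19.6%, 23.2% and 22.4% of all genes) and none higher (3.84%, 4.35% and 3.2%). With doublet calls kept, the calls over all classes fell from 18 to 6, over 8 named RNA classes in place of 9.

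**Figure D3:**
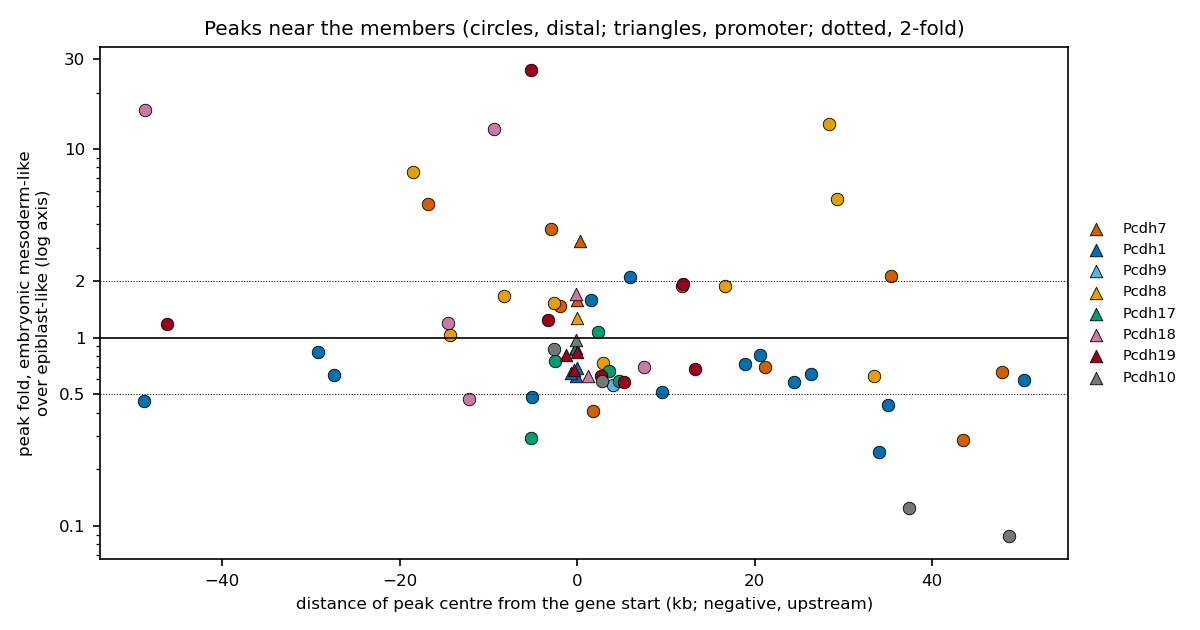
Fold of embryonic mesoderm-like over epiblast-like nuclei (log axis) for each peak near a member that passed the fragment limit, against the distance of its centre from the nearest start of the gene (kb, negative upstream); circles are distal and triangles promoter peaks, with dotted lines at 2-fold. The Pcdh19 peak 5.25 kb upstream is highest at 26.2-fold and the Pcdh10 peak 48.6 kb downstream lowest at 0.0887.

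Individual distal peaks differed by more, and over all features distal peaks were also called more often than promoters. Of the 72 distal peaks, 54 passed the limit of 50 fragments in embryonic mesoderm-like against epiblast-like nuclei, and 10 were higher and 10 lower. These shares were near or above those over all distal peaks (16.8% higher and 18.4% lower), so their number says little about the members. The higher ones lay at Pcdh7 and Pcdh8 (3 each), Pcdh18 (2), Pcdh19 and Pcdh1 (1 each). The lower ones lay at Pcdh1 (4), Pcdh7 and Pcdh10 (2 each), Pcdh17 and Pcdh18 (1 each).

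At Pcdh19 the peak at chrX:133693730-133694734, 5.25 kb upstream of a start and outside the gene, had 7.28 CPM in embryonic mesoderm-like and 0.277 in epiblast-like nuclei, 26.2-fold (12.9 to 62.4). Of the other RNA-defined classes none exceeded the 0.651 CPM of haemato-endothelial nuclei, and primitive streak-like nuclei were at 0.531. None of these classes was extraembryonic mesoderm-like, the class with the next highest Pcdh19 RNA (38.6 CPM), so the peak was not read there. Over the 17 RNA clusters of at least 100 nuclei its log2 level had a Pearson coefficient of 0.799 with Pcdh19 RNA, against 0.309 for the promoter sum (Spearman 0.593 and 0.262). A second peak inside the gene, chrX:133674837-133675752, 12.0 kb downstream of the start, was highest in parietal endoderm-like nuclei at 14.0 CPM (3.11-fold over epiblast-like). It was 9.95 in haemato-endothelial, 8.67 in embryonic mesoderm-like and 4.49 in epiblast-like nuclei.

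At Pcdh18, chr3:49805521-49806413 (48.7 kb upstream) had 4.46 CPM in embryonic mesoderm-like and 0.277 in epiblast-like nuclei, 16.1-fold (7.69 to 38.8). The peak at chr3:49766273-49767112 (9.38 kb upstream) was instead highest in haemato-endothelial nuclei, at 8.09 CPM or 29.2-fold (14.2 to 67.7), and at 3.53 CPM in embryonic mesoderm-like ones. The RNA of Pcdh18 had the same order between the accessibility-defined classes of these names, which do not hold the same nuclei. The class with the highest Pcdh18 RNA, extraembryonic mesoderm-like (48.1 CPM), had no RNA-defined counterpart. Another peak, 12.2 kb upstream, was higher in epiblast-like nuclei, at 4.90 against 2.32 CPM.

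At Pcdh8, chr14:79789327-79790215 (18.5 kb upstream) had 5.99 CPM in embryonic mesoderm-like and 0.795 in epiblast-like nuclei, 7.54-fold (4.72 to 12.5). Its Pearson coefficient with Pcdh8 RNA over the RNA clusters was 0.817 and that of the promoter 0.774, but Spearman's had the opposite order, at 0.794 and 0.929. A pair of weaker peaks 28.4 and 29.3 kb downstream was 13.7-fold (6.12 to 35.9) and 5.43-fold (2.94 to 10.6) higher; they fell outside the rule for named peaks and were singled out after their values were seen. At Pcdh7, chr5:57714596-57715481, 2.93 kb upstream of the start in the files, was the strongest of its distal peaks. It is 1 of the 2 peaks near the RefSeq start of the gene, with the one at chr5:57715624-57716432 (1.47-fold). It had 54.1 CPM in embryonic mesoderm-like, 41.7 in haemato-endothelial, 26.3 in anterior streak, 14.3 in epiblast-like, 6.76 in visceral endoderm-like and 3.57 in parietal endoderm-like nuclei. The first was 3.78-fold over epiblast-like (3.35 to 4.26), and the coefficient with Pcdh7 RNA was 0.882, against 0.782 for the promoter sum (Spearman 0.922 and 0.716).

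**Figure D4:**
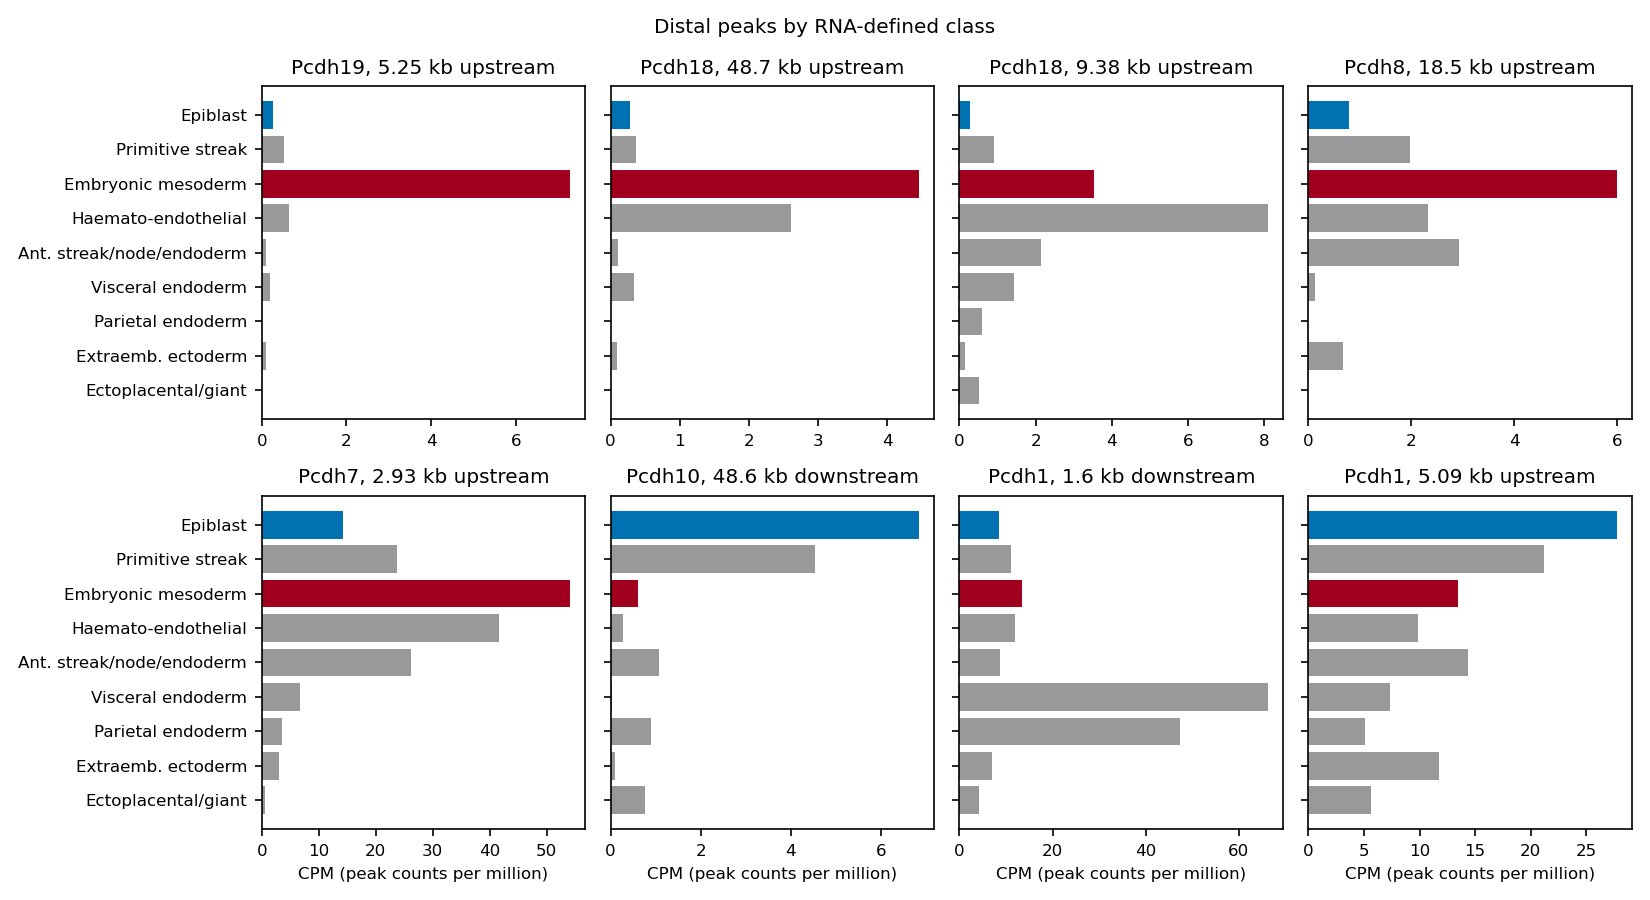
Accessibility of 8 distal peaks (CPM) in the 9 RNA-defined classes, whose names are shortened from "X-like", with epiblast in blue and embryonic mesoderm in dark red; bars are pooled counts and no interval is drawn. The Pcdh19 peak stands at 7.28 in embryonic mesoderm and at most 0.651 in the other classes drawn, which include no extraembryonic mesoderm. The Pcdh1 peak 1.6 kb downstream of a start reaches 66.2 in visceral endoderm.

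At Pcdh10 the distal peak with the largest difference was lower in mesoderm: chr3:45426595-45427506, inside the gene 48.6 kb downstream of the start, had 6.84 CPM in epiblast-like, 0.606 in embryonic mesoderm-like and 0.0335 in visceral endoderm-like nuclei. The last value is at the floor of the counts, since 18 counts make 0.602 CPM in that class. Epiblast-like nuclei were 11.3-fold over embryonic mesoderm-like ones, where Pcdh10 RNA differed less. At Pcdh1 the peak at chr18:38207724-38208590, 1.6 kb downstream of a start, had 66.2 CPM in visceral endoderm-like and 47.3 in parietal endoderm-like nuclei, 7.84-fold (6.81 to 9.04) and 5.60-fold over the 8.45 CPM of epiblast-like nuclei. The Pcdh1 peak 5.09 kb upstream ran the other way, at 27.7 CPM in epiblast-like and 7.33 in visceral endoderm-like nuclei. Both peaks had counts in both classes. Pcdh1 RNA had a ratio of 1.04 (0.933 to 1.16) between the accessibility-defined classes of the same names. Those are other sets of nuclei: 850 visceral endoderm-like and 2325 epiblast-like, against 1720 and 2997 in the RNA-defined classes.

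Pcdh17 had no distal peak that was higher in mesoderm. Its 3 named peaks, 2.34, 3.61 and 4.75 kb downstream, had ratios of 1.06, 0.664 and 0.587, although its RNA was 7.79-fold higher. Over the RNA clusters the peak 2.34 kb downstream had a Pearson coefficient of 0.749 with Pcdh17 RNA, against 0.408 for the promoter sum (Spearman 0.794 and 0.417). Pcdh9 had a single distal peak, at a ratio of 0.558 (0.316 to 0.941), and its coefficient of 0.606 was below the 0.852 of the promoter sum (Spearman 0.735 and 0.801). Pcdh18 and Pcdh1 also had higher Pearson coefficients at the promoter, 0.743 and 0.683, than at any distal peak, at most 0.672 and 0.519. Spearman's had the opposite order there, at 0.569 and 0.650 for the promoter sums and 0.619 and 0.669 for those distal peaks. For Pcdh10 the peak 48.6 kb downstream was at 0.805 and the promoter at 0.590 (Spearman 0.733 and 0.485).

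In the visceral endoderm, trophoblast and parietal endoderm classes most of the members' distal peaks that passed the limit were called lower. Visceral endoderm-like nuclei had 7 higher and 36 lower of 51 (all distal peaks, 22.6% and 41.8%), extraembryonic ectoderm-like 3 and 32 of 46 (18.8% and 38.8%), ectoplacental 3 and 27 of 42 (10.1% and 50.1%) and parietal endoderm-like nuclei 4 and 31 of 40 (9.26% and 53.6%). Haemato-endothelial nuclei had 3 higher and 17 lower of 45 (12.1% and 29.6%) and the anterior streak class 4 and 8 of 49 (13.3% and 13.6%). Primitive streak-like nuclei had 1 and 1 of 52 (2.87% and 3.4%). The fragment limit was summed over both classes, and epiblast-like nuclei numbered 2997 against 180 parietal endoderm-like and 219 ectoplacental ones. Weak peaks thus passed mainly through epiblast-like nuclei, which favours lower calls. The distal peaks of Pcdh18, for example, had 2 counts in ectoplacental and 475 in epiblast-like nuclei. The shares over all distal peaks carry the same limit.

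Pcdh19 is X-linked, so its RNA was compared between nuclei with at least 2 Xist UMIs and no Y-linked UMI and nuclei with a Y-linked UMI (Kdm5d, Uty, Ddx3y or Eif2s3y) and no Xist. In embryonic mesoderm-like nuclei 339 of the former had 119 CPM and 813 of the latter 199, a ratio of 0.599 (0.539 to 0.664). The share with a Pcdh19 UMI was 48.97% (43.5 to 54.4) and 60.0% (56.6 to 63.4), and the nuclei with any had means of 2.77 and 3.68 UMIs. Median depths were 10733 and 10529 UMIs. Among 305 other X-linked genes the median log2 ratio was 0.00, and 3 of them, Il1rapl1, Rtl4 and Mid1, lay at or below Pcdh19. Pcdh11x, also X-linked, was at 1.03 (0.916 to 1.15). Of 7828 autosomal genes, 21 lay at or below the ratio of Pcdh19.

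The ratio was 0.601 (0.514 to 0.700) and 0.696 (0.594 to 0.813) within the finer mesoderm clusters. Accessibility was compared in the RNA-defined embryonic mesoderm-like class, which is another set of nuclei. There the Pcdh19 promoter had a ratio of 1.0 (0.771 to 1.29) and the sum of its distal peaks one of 0.873 (0.686 to 1.10). For RNA of the autosomal members in the accessibility-defined class, Pcdh9 (0.537, 0.321 to 0.860) and Pcdh8 (0.702, 0.554 to 0.882) were also lower in Xist nuclei, and Pcdh7 was 1.11 (1.09 to 1.14). The intervals of the other 4 included 1. Pcdh19 was not lower everywhere: parietal endoderm-like nuclei with Xist had 2.55-fold more (1.5 to 4.41; 41 against 24 UMIs), and 14 of the 41 UMIs were in 1 nucleus. In epiblast-like (0.624, 0.335 to 1.10) and extraembryonic mesoderm-like nuclei (0.788, 0.463 to 1.28) the intervals included 1. Embryos were pooled, so sex and the embryo of origin cannot be told apart.

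**Figure D5:**
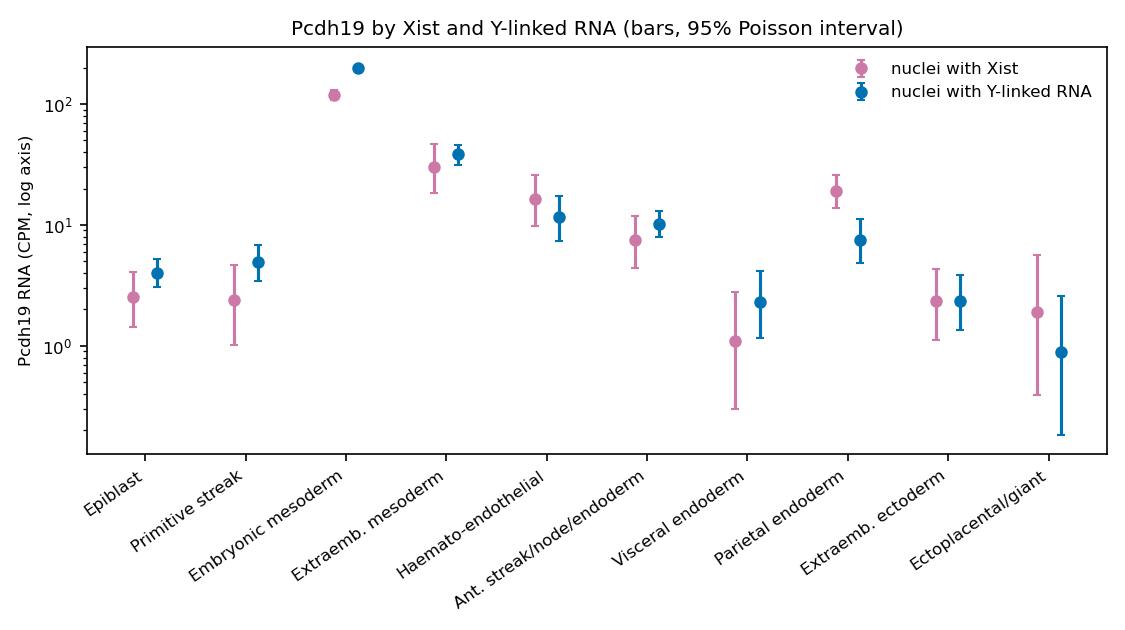
Pcdh19 RNA (CPM, log axis) in nuclei with Xist and in nuclei with Y-linked RNA, by accessibility-defined class, whose names are shortened from "X-like"; points are pooled counts and bars 95% Poisson intervals. The groups stand apart in embryonic mesoderm (119 against 199) and, the other way, in parietal endoderm (19.2 against 7.55).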

How the data were processed

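Per the labels' protocols, pooled E7.0 embryos were dissociated and nuclei sequenced as 10x Genomics RNA and accessibility libraries. The deposited values were raw whole-number counts (UMIs per gene, counts per peak) in 1 matrix, written by Cell Ranger ARC 2.0.0 on mm10, per the submitters' processing notes. All 15341 barcodes carried 1 library suffix. They held 182201512 UMIs and 273131304 peak counts, and 74.0% of nonzero peak values equalled 2, so fragments were estimated as the count divided by 2, rounded up.

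Barcodes with at least 1000 UMIs, 500 genes, 1000 peak counts and at most 20% mitochondrial UMIs were kept. Removing Scrublet doublet calls (1154, or 7.52% of all barcodes) left 12796 nuclei (83.4%). Clusters came from scanpy 1.11.5 and leidenalg 0.10.2 (30 components, 15 neighbours, resolution 1), giving 17 accessibility and 19 RNA clusters. A name needed a mean log2 ratio of 0.5 and 3 markers raised 1.5-fold, with no close rival list; this rule was set after seeing the data. Peak coordinates count from 1; gene spans, lengths and promoter windows are from RefSeq on GRCm38.p6, and exon annotation was not used here. Peaks were assigned to the starts the files give, and 14 were promoter, 72 distal and 2 lay at promoters of other genes.

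CPM divides pooled counts by pooled totals. Intervals are exact Poisson for CPM, exact conditional binomial for folds and Clopper-Pearson for shares. The named genes and peaks were the members, the 3 genes most like each, the 3 genes of each list with the largest fold, and for each member the strongest promoter peak and up to 3 distal peaks of widest range with at least 200 counts. The members and lists were chosen with earlier results of these data known. Only the fold intervals and the 2-fold call were checked on simulated data, which were Poisson counts without spread between nuclei. Alternatives changed the resolution, components, depth limit, doublets, class source, count filter, windows, pseudocount, Xist limit, thinning and pooling.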

Additional observations from a re-analysis of the deposited data

How the results depend on the processing

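Members called higher in embryonic mesoderm-like nuclei numbered 5, also under each of the 9 alternatives run for that count. Calls of members over all accessibility-defined classes numbered 48, and 31 at resolution 0.5, where 7 classes were named in place of 10. Promoter calls numbered 18, and 6 with doublet calls kept. Distal peak calls numbered 197, with 305 when no limit was set on fragments and 127 within 20 kb. The Xist to Y-linked ratio of Pcdh19 was 0.599 and ran from 0.582 to 0.696, the last in the second finer mesoderm cluster, an alternative chosen after seeing the data, as was leaving out nuclei with both Xist and Y-linked UMIs (43 calls). Of the 24 genes most like a member, 10 were shared at resolution 0.5 and with 20 components, and 11 at resolution 2, with the stricter depth limit and with doublet calls kept. With a pseudocount of 10 CPM 13 were shared, and 17 with a limit of 2000 UMIs per gene. Co-detection ratios above 1 were 14 of 19 pairs, and between 10 of 19 (resolution 0.5 and the stricter depth limit) and 11 of 14 (doublet calls kept), pairs with Pcdh7 included. Of the members' folds of embryonic mesoderm-like over epiblast-like nuclei, only the promoter ratio of Pcdh10 crossed 1: it was 0.973, not called, and 1.06 as a mean over nuclei and 1.01 in accessibility-defined classes. Of 72 RNA folds of members under the alternatives, 55 moved by less than their counting interval, as did 75 of 80 promoter folds. Both tallies include folds that could not move. Dropping the count filter changes calls and not folds, and RefSeq starts added peaks at Pcdh7 alone. With peaks at RefSeq starts added, also chosen after seeing the data, the Pcdh7 promoter ratio was 2.35 in place of 1.67. With windows of 2000 bp it was 1.11, that of Pcdh8 1.04 and that of Pcdh1 0.818. No replicates could be compared because each assay has 1 library. RNA and accessibility are paired within each nucleus, but their folds were read in different sets of nuclei, since each assay's classes came from the other. Depth limits the members with few epiblast UMIs, Pcdh8 (55), Pcdh10 (61) and Pcdh17 (63), and the weak distal peaks. Under the stricter depth limit Pcdh7 was 19.7-fold and Pcdh19 31.7-fold. The cause of each change was not tested.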

Other observations

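A cluster of 1006 nuclei stayed unnamed because visceral and parietal endoderm markers were both raised; its leading genes included Sfrp5, Kitl and Foxq1. Its Pcdh7 level was 502 CPM, against 30.5 in visceral endoderm-like nuclei, 16.4-fold (14.7 to 18.4). Whether few nuclei held most of this cluster's Pcdh7 UMIs was not measured. Nor was its level without nuclei holding both Xist and Y-linked UMIs. Against visceral endoderm-like nuclei, Pcdh18 was at 7.08 against 1.62 CPM, 4.38-fold (2.64 to 7.68), and Pcdh19 at 3.58 against 1.80 CPM, 1.99-fold (1.17 to 3.52). Pcdh1 was close in both, at 51.9 and 43.3 CPM. Pcdh8, Pcdh9, Pcdh10 and Pcdh17 had ratios whose intervals included 1.

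The unnamed cluster of 702 nuclei in which Pcdh10 was highest had Pcdh17 at 1.92-fold (1.19 to 3.02) and Pcdh19 at 1.83-fold (1.25 to 2.64) over epiblast-like nuclei, and Pcdh7 at 0.514 of them (0.451 to 0.583). Pcdh1 was equal within its interval, at 42.1 and 41.6 CPM. In haemato-endothelial progenitor-like nuclei Pcdh7 was 1.56-fold higher in nuclei with Xist than in nuclei with Y-linked RNA (1.45 to 1.66), at 1492 and 959.5 CPM. These were 94 and 189 nuclei of pooled embryos, with median depths of 11518 and 9845 UMIs. Single nuclei held up to 212 Pcdh7 UMIs over all classes, and the interval leaves out the spread between nuclei. The ratio is 1 of many, computed for each member in each class, and other genes were not compared in this class.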
